A study of Homo sapiens with 8 samples.

Results

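The genes *CHRNB2*, *VGF* and *PADI1* are 3 of 13307 genes measured by mRNA-seq in Panc-1 cells, and they were chosen by their rise after depletion of the PHD finger protein PHF13, which was among the largest of all genes. Their levels in all 4 conditions are described here. Because the rise after depletion chose them, it is given as a description without a test. Panc-1 is an established human cell line from a carcinoma of the pancreatic duct. The cells were transfected with a control siRNA (siControl) or with siRNAs against *PHF13* (siPHF13), and from the next day either left without TGFβ or kept for 48 h with TGFβ at 10 ng/ml (siControl_TGFβ and siPHF13_TGFβ). TGFβ is a cytokine that drives epithelial-mesenchymal transition in these cells. Each condition had 2 libraries, 8 in all. The labels and methods do not say whether the 2 came from separate cultures, so every p-value measures the spread between libraries, which may be technical. The model is a knockdown in 1 cell line. The labels give a control siRNA for the untreated control samples, but their columns in the table carry the prefix NT and were matched to them only as the sole control without TGFβ. Whether NT could stand for cells without siRNA cannot be told from these sources, and it bears on every comparison with siControl.

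The values are normalized counts, read counts of a gene divided by a size factor of the library. Between 39196214 and 46700806 reads per library fell on the 13307 genes. *PHF13* itself, on chromosome 1, had 1804 and 1662.4 normalized counts in siControl and 524.2 and 558.3 in siPHF13 cells. With TGFβ it had 1585.9 and 1709.5 in siControl_TGFβ and 512.8 and 529.4 in siPHF13_TGFβ cells. The labels and the targeted gene therefore go together in all 8 libraries. The summed level of 8 duct epithelial markers was 131975 to 209790.9 normalized counts per library, most of it from the keratins *KRT8*, *KRT18* and *KRT19*. Of 10 acinar, immune and endothelial markers, only *CD68* was in the table.

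The 3 genes belong to different systems. *CHRNB2* encodes the β2 subunit of the nicotinic acetylcholine receptor, a ligand-gated cation channel made of several subunits, and in the brain it forms the main high-affinity nicotine receptor together with the α4 subunit. *VGF* encodes a secreted precursor of neurons and endocrine cells that is stored with the granins in dense-core vesicles, cleaved into peptides and was first known as a gene induced by nerve growth factor. *PADI1* encodes a peptidylarginine deiminase, a calcium-dependent enzyme that converts arginine in proteins to citrulline and is best known from the epidermis, where it acts on keratins and filaggrin. Neurons and neuroendocrine cells are the usual sites of the first and second gene, and stratified epithelium is that of the last. In many other cell types, neuronal genes are held silent by the repressor REST, which binds a DNA element called RE1 and recruits corepressors.

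On GRCh37 *CHRNB2* lies on the plus strand at chr1:154540254-154552489 and *PADI1* on the plus strand at chr1:17531623-17572502. *VGF* lies on the minus strand at chr7:100805790-100808850. An annotated antisense RNA, ENSG00000233875, overlaps *CHRNB2* at chr1:154551541-154552139. The strand setting of the counting is not given in the sources used here, so reads of *CHRNB2* and of this RNA cannot be told apart. No other annotated gene overlaps *VGF* or *PADI1*. Because the 3 genes were chosen by their rise, their moving together is no finding. The 250 bases upstream of each start site are shown as a description. They are from RefSeq on GRCh38.p14, and run 5′ to 3′ on the strand of the gene. Capitals mark matches to 7 motifs searched on both strands.
*CHRNB2*, chr1:154567528-154567777, plus strand: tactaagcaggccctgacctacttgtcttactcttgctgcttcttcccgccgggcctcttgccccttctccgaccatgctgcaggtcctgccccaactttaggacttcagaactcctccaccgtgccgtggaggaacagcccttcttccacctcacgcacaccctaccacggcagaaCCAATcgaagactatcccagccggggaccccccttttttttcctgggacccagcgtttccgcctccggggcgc
*VGF*, chr7:101165570-101165819, minus strand: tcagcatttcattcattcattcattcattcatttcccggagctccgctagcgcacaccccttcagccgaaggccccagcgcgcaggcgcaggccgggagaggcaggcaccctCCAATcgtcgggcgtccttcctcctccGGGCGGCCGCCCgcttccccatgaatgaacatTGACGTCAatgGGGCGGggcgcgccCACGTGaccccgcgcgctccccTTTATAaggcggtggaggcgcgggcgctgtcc
*PADI1*, chr1:17204878-17205127, plus strand: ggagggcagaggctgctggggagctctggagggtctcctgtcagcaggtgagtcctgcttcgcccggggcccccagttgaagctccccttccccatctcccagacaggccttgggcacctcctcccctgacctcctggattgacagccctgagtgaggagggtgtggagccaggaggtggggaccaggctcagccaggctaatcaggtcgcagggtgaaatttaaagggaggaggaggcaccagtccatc

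GC content was 60.4% in the *CHRNB2*, 66.0% in the *VGF* and 64.0% in the *PADI1* sequence, against a median of 58% over 35116 promoters of the same table. The *VGF* promoter held the cyclic AMP response element TGACGTCA 79 bases upstream of the start site (position -79), which 1.85% of all promoters held within the same 300 bases (250 before and 50 after the start). It also held an E-box (CACGTG, 7.26% of promoters) at -54, a CCAAT box (34.6% of promoters) at -138 and, read on the opposite strand, a TATA box (TATAAA, 11.5% of promoters) at -32. Of its 4 GC boxes (GGGCGG, 45.0% of promoters), 3 lie in the sequence shown and 2 of these adjoin in 1 run of capitals. The *CHRNB2* promoter held 2 CCAAT boxes, at -73 and at 22 after the start site. None of these letters occurred in the *PADI1* window. The AP-1 site TGANTCA (7.71% of promoters) and the palindromic SMAD element GTCTAGAC (0.202%) matched in none of the 3 windows. A match is a description of the sequence, and no match says only that these letters are not in this window.

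A further search was thought of after the values had been seen. The RE1 consensus, whose 19 specified bases are the capitals of the *CHRNB2* sequence shown, was searched on both strands within 1000 bases of the annotated start of 12298 genes on GRCh37, and up to 3 mismatches at the specified bases were allowed. Such a match was found at 58 genes (0.472%). *CHRNB2* and *VGF* were among them. Capitals mark bases that match the element.
*CHRNB2*, chr1:154540430-154540450, plus strand, no mismatch: TTCAGCACCacGGACAGCGCC
*VGF*, chr7:100808840-100808860, plus strand, 1 mismatch: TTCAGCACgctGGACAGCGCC
*VGF*, chr7:100807865-100807885, plus strand, 3 mismatches: agCAGCACCgcGGcCAGCGCC
*CHGB*, chr20:5892350-5892370, plus strand, 1 mismatch: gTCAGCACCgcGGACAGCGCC
*SYP*, chrX:49056581-49056601, minus strand, 2 mismatches: TcCAGCACCgtGGACAGaGCC

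The *CHRNB2* match lies in the 5′ UTR of exon 1, with its centre 186 bases downstream of the annotated start of the gene. The nearer *VGF* match spans the annotated start site and the edge of exon 1, and the other lies in the coding sequence of exon 2. A match without mismatch was present at 0.0244% of genes, and one with at most 1 mismatch at 0.0894%. *PADI1* had no stretch with fewer than 4 mismatches, a number that 2.44% of genes reached or bettered. *CHGB* and *SYP*, also shown, encode the granin chromogranin B and the vesicle protein synaptophysin, whose levels are given further on. Both rose after depletion. Matches without mismatch were also found at *GRIN1* and *CRH*. *GRIN1* fell, from 150.8 and 172.1 normalized counts in siControl to 77.58 and 84.83 in siPHF13 cells. *CRH* rose, from 0.9485 and 0.901 to 21.88 and 18.74.

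*CHRNB2* had low levels in control cells. It had 17.07 and 16.22 normalized counts in the siControl libraries and 344.1 and 403.5 in the siPHF13 libraries. With TGFβ it had 18.33 and 25.71 in siControl_TGFβ and 391.9 and 351.3 in siPHF13_TGFβ. Both libraries with siPHF13 lay above both with siControl, as for 38.5% of all genes without and 35.6% with TGFβ. The gene was chosen by this rise, so the separation is only described. The low values rest on 17 to 25 reads per library, and the high values on 363 to 409 reads in the 3 libraries in which whole reads could be recovered. The mean rose 22.5-fold without TGFβ, from 16.65 ± 0.604 to 373.8 ± 41.9 normalized counts (SD, n = 2). For the closest and the most distant pair of libraries the ratio was 20.2 and 24.9. With TGFβ the mean was 16.9-fold higher, with pairs between 13.7 and 21.4.

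*VGF* was the most abundant of the 3. It had 664.9 and 646 normalized counts in siControl and 5973.9 and 6441.5 in siPHF13 cells. With TGFβ it had 659.8 and 525.6 in siControl_TGFβ and 6322.8 and 5524.7 in siPHF13_TGFβ cells. Here too both libraries with siPHF13 lay above both with siControl, as for 38.5% of all genes without and 35.6% with TGFβ. The ratio of the means was 9.47 without TGFβ (655.4 ± 13.3 against 6207.7 ± 331, SD, n = 2), with pairs of libraries between 8.98 and 9.97. It was 9.99 with TGFβ, with pairs between 8.37 and 12.0.

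*PADI1* was low in control cells, with 47.42 and 63.07 normalized counts in siControl and 59.29 and 85.37 in siControl_TGFβ. It had 746 and 932.2 in siPHF13 and 593.7 and 611.2 in siPHF13_TGFβ cells. Both libraries with siPHF13 lay above both with siControl, as for 38.5% of all genes without and 35.6% with TGFβ. The gene was chosen by this rise. Both siPHF13_TGFβ libraries lay below both siPHF13 libraries, as for 19.8% of all genes. The mean was 15.2-fold higher after depletion without TGFβ, with pairs of libraries between 11.8 and 19.7. With TGFβ it was 8.33-fold higher, with pairs between 6.95 and 10.3.

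**Figure D1:**
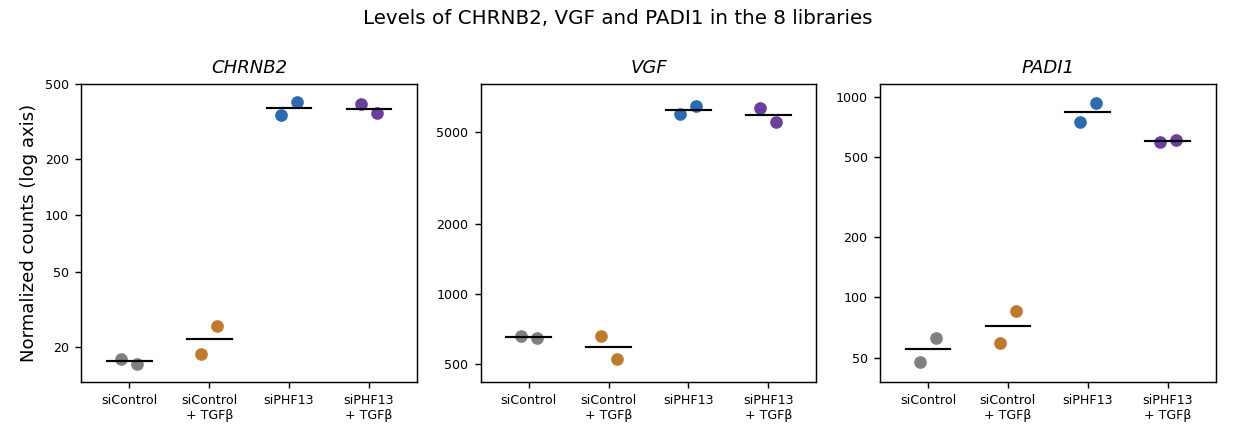
Normalized counts of *CHRNB2*, *VGF* and *PADI1* on log axes, with 1 point per library and a bar at the mean of 2 libraries, in the 4 conditions. The siPHF13 points of each gene lie above all siControl points, with *CHRNB2* going from a mean of 16.65 to 373.8 without TGFβ. The genes were chosen by this rise.

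Per kilobase of exon, the level of *CHRNB2* in siControl cells was 2.83 normalized counts per kb, and 2.94% of the 12298 genes with a known exon length lay below it. In siPHF13 cells it was 63.6 per kb, with 26.1% of genes below. *PADI1* went from 11.3 per kb (10.1% of genes below) to 171 per kb (44.5%). *VGF* began in the middle of all genes, at 245 per kb (52.5%), and reached 2320 per kb, with 95% of genes below. The order *VGF*, *PADI1*, *CHRNB2* on this scale was the same in all 4 conditions, and after depletion *CHRNB2* and *PADI1* were still below the median gene. In bulk RNA, more cells that transcribe a gene and more RNA per cell cannot be told apart.

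The changes were then estimated with limma on log2(normalized count + 1) in one model of all 8 libraries, whose fold changes are slightly smaller for low genes because of the added 1. A gene was called changed when its Benjamini-Hochberg adjusted p over 13307 genes was under 0.05 and its absolute log2 fold change over 0.58. After depletion without TGFβ, 7.95% of all genes were called higher and 10.4% lower, and with TGFβ 8.81% and 11.7%. The log2 fold change of *CHRNB2* after depletion was 4.40 ± 0.25 (SE) without and 4.03 ± 0.25 with TGFβ. That of *VGF* was 3.24 ± 0.10 and 3.33 ± 0.10, and that of *PADI1* was 3.91 ± 0.21 and 3.06 ± 0.21. The rule used these contrasts, so nothing is read from their size against other genes. The members were not the extreme of the distribution in each case. Ranked by the rise without TGFβ, *CHRNB2* was number 4 of 13307, between *SCG3* (log2 fold change 4.46) and *KRT75* (4.32). *PADI1* was number 12, between *KCNE2* (3.91) and *CLDN6* (3.76). *VGF* was number 20, between *BGN* (3.25) and *CPNE4* (3.11). In TGFβ-treated cells they were number 4 (*CHRNB2*), 8 (*VGF*) and 19 (*PADI1*). Both siPHF13 libraries lay above both siControl libraries for 38.5% of all genes, and for 35.6% with TGFβ.

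The response to TGFβ was not used to choose the 3 genes, although it shares libraries with the depletion comparisons. With TGFβ 4.79% of all genes were called in siControl cells (3.27% higher and 1.52% lower) and 1.35% in siPHF13 cells, and none of the 3 genes was among them. In siControl cells the log2 fold change of *CHRNB2* with TGFβ was 0.36 (95% interval -0.17 to 0.90, adjusted p = 0.376). For *VGF* it was -0.15 (-0.38 to 0.07, adjusted p = 0.364), and for *PADI1* 0.37 (-0.07 to 0.82, adjusted p = 0.262). These intervals do not exclude a modest change in either direction, and a p that misses the threshold does not show that TGFβ left the genes alone. In siPHF13 cells *CHRNB2* had a log2 fold change of -0.01 (-0.54 to 0.53, adjusted p = 0.997) and *VGF* one of -0.07 (-0.29 to 0.15, adjusted p = 0.843). *PADI1* had -0.47 (-0.91 to -0.03), which left 72.3% of the level without TGFβ and did not pass the adjustment (adjusted p = 0.323). Both siPHF13_TGFβ libraries lay below both siPHF13 libraries for this gene, as they did for 19.8% of all genes. Averaged over siControl and siPHF13 cells, where 3.52% of all genes were called, the log2 response was 0.18 for *CHRNB2* (adjusted p = 0.543), -0.11 for *VGF* (0.334) and -0.05 for *PADI1* (0.863).

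**Figure D2:**
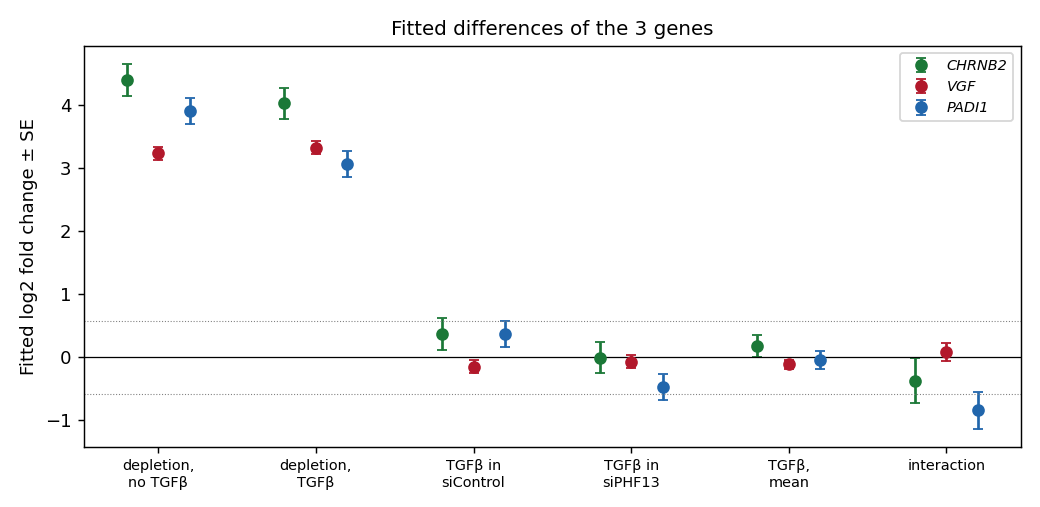
Fitted log2 fold changes of *CHRNB2*, *VGF* and *PADI1* with their standard errors, for depletion without and with TGFβ, for TGFβ in siControl cells, in siPHF13 cells and on average, and for the difference between both responses, with dotted lines at the threshold of 0.58 in each direction. The depletion values lie between 3.06 and 4.40, the TGFβ values between -0.47 and 0.37 and the differences between -0.84 and 0.08.

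The difference between the responses to TGFβ (siPHF13 minus siControl cells) equals the difference of the 2 depletion effects and is therefore given without a test. It was -0.84 ± 0.29 (SE) on the log2 scale for *PADI1* (95% interval -1.47 to -0.21), -0.37 ± 0.35 for *CHRNB2* and 0.08 ± 0.15 for *VGF*. Over all genes 0.308% were called for this difference.

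The genes with the most similar profile were sought by the distance between centred log2 values over the 8 libraries, among the 11201 genes whose mean reached 100 normalized counts. All 8 values share the same 4 conditions, so likeness mainly reflects a similar rise after depletion. For *CHRNB2* the nearest genes were *PADI1* (distance 1.2, Pearson r = 0.993), the hair follicle keratin *KRT75* (1.2, r = 0.981), *VGF* (1.53, r = 0.99), the tight junction gene *CLDN6* (1.73, r = 0.961) and the hair keratin *KRT81* (1.98, r = 0.982). Hair keratins are near copies of each other, so reads of *KRT81* may be split with its paralogs. For *VGF* they were *BSN* (0.877, r = 0.994) and *SV2A* (0.918, r = 0.992), which encode a presynaptic scaffold and a synaptic vesicle protein, then *PADI1* (1.01, r = 0.98), the neuronal calcium-dependent kinase *CAMK2A* (1.03, r = 0.988) and the granin *SCG2* (1.15, r = 0.969). For *PADI1* they were *VGF*, *CHRNB2*, *CAMK2A* (1.3, r = 0.99), *SCG2* (1.33, r = 0.965) and *SV2A* (1.34, r = 0.983). *SV2A* had 176.4 and 168.5 normalized counts in siControl and 1051.3 and 1268.6 in siPHF13 cells, and *CAMK2A* had 43.63 and 52.26 against 291.4 and 387.7. *KRT75* had 40.78 and 31.54 against 727.1 and 738.8. None of the 7 genes named here that are not among the 3 held an RE1 match within 1000 bases of its start. Over all 12298 genes searched only 0.472% held one, so this absence in 7 genes says little.

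Among the relatives of *PADI1*, both other measured deiminases were called higher in both depletion comparisons, beside 7.95% of all genes without and 8.81% with TGFβ. *PADI2*, which is widely expressed, had 6740.8 and 6742.2 normalized counts in siControl and 13774.9 and 17302.3 in siPHF13 cells, a log2 fold change of 1.2 ± 0.09 (SE, adjusted p = 2.33e-07). With TGFβ it had 10317.3 and 9086.3 against 16630.2 and 17092, and a log2 fold change of 0.80. *PADI3*, an enzyme of the hair follicle, had 13.28 and 11.71 in siControl and 55.7 and 105.5 in siPHF13 cells, a log2 fold change of 2.53 ± 0.47 (adjusted p = 0.000546). With TGFβ its values were 16.17 and 8.228 against 55.06 and 89.51, a log2 fold change of 2.50. The median log2 fold change of the 2 genes was 1.86 without and 1.65 with TGFβ, against -0.001 and 0.003 over all genes. *PADI2* had a log2 response of 0.52 to TGFβ in siControl cells (adjusted p = 0.00129), below the fold threshold. *PADI4* and *PADI6* were not analysed here.

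The 3 deiminase genes lie next to each other on chromosome 1. *PADI3* begins 3090 bases after *PADI1* and *PADI2* lies 85676 bases before it. Beyond them the nearest measured genes were *SDHB* and *ATP13A2* on one side and *RCC2* and *ARHGEF10L* on the other. *SDHB* (log2 fold change 0.12), *ATP13A2* (0.08) and *RCC2* (-0.01) were not called after depletion without TGFβ. *ARHGEF10L*, 293690 bases away, was called lower (-1.24, adjusted p = 0.0056), and not without siControl replicate 1 (-1.15, adjusted p = 0.0516).

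The neighbours of *CHRNB2* and *VGF* did not move as a block. *ADAR*, 1681 bases from *CHRNB2*, had a log2 fold change of -0.43, and *UBE2Q1*, 8749 bases from it, one of -0.52, both below the fold threshold. *IL6R*, the interleukin 6 receptor gene 98327 bases away, was called higher, from 2171 and 2216.5 to 6305.1 and 6117 normalized counts (log2 fold change 1.5 ± 0.07, adjusted p = 3.26e-09). *AP1S1*, 912 bases from *VGF*, had a log2 fold change of 0.13 and was not called. *NAT16*, 4926 bases from *VGF*, was called lower without TGFβ (-1.89, adjusted p = 0.0182) on values of 46.47 and 18.92 against 5.968 and 8.878, and had 0.81 with TGFβ (adjusted p = 0.281). The call was lost without siControl replicate 1 (-1.26, adjusted p = 0.224) or siPHF13 replicate 1 (-1.64, adjusted p = 0.0904).

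**Figure D3:**
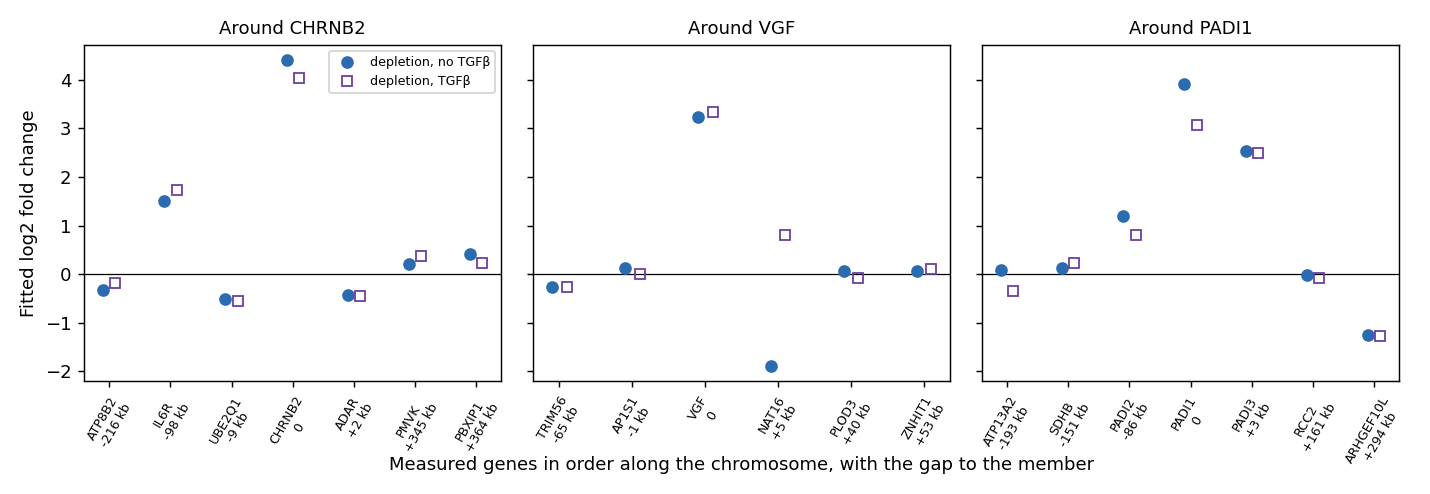
Log2 fold changes after depletion without and with TGFβ for *CHRNB2*, *VGF* and *PADI1* and the nearest measured genes on each side (6 around *CHRNB2* and *PADI1*, 5 around *VGF*), in genomic order and with the gap in kb. Of these neighbours *IL6R*, *PADI2* and *PADI3* lie at 1.5, 1.2 and 2.53 without TGFβ.

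*VGF* is stored and processed with the granins, and of 6 other measured genes for granins and prohormone processing 5 were called higher and 0 lower, both without and with TGFβ. Over all genes 7.95% were called higher and 10.4% lower without TGFβ, and 8.81% and 11.7% with TGFβ. The median log2 fold change was 1.28 without and 1.09 with TGFβ, against -0.001 and 0.003 over all genes. *SCG2*, the precursor of secretoneurin, had 188.7 and 207.2 normalized counts in siControl and 1458.2 and 1760.8 in siPHF13 cells, a log2 fold change of 3.01 ± 0.18 (SE, adjusted p = 2.54e-08). With TGFβ in siControl cells it was the only gene of the 6 past both thresholds (-0.83, adjusted p = 0.0055), a call that was lost without siControl replicate 2 (-0.77, adjusted p = 0.0607) or siControl_TGFβ replicate 1 (-0.52, adjusted p = 0.0644). *SCG3*, a granin that binds chromogranin A, had 2.845 and 8.109 in siControl and 121.3 and 138.1 in siPHF13 cells, a log2 fold change of 4.46 ± 0.44 that rests on few reads in the controls. *CHGB* had 113.8 and 114.4 against 295.4 and 308.8, a log2 fold change of 1.40 ± 0.17 (adjusted p = 1.64e-05).

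*PCSK1N*, an inhibitor of the prohormone convertase PCSK1, had 65.44 and 86.5 normalized counts in siControl and 184 and 156.8 in siPHF13 cells (log2 fold change 1.16 ± 0.22, adjusted p = 0.000744). *SCG5*, which encodes the chaperone 7B2 of the convertase PCSK2, had 33.2 and 18.02 against 75.59 and 40.44 and passed narrowly (1.14 ± 0.41, adjusted p = 0.034). Its call was lost without siControl replicate 2 (0.72, adjusted p = 0.264) or siPHF13 replicate 1 (0.70, adjusted p = 0.286), and with TGFβ without any single library compared, so that 4 or 5 of the 6 genes were called higher with 1 library left out. The amidating enzyme *PAM* had 6980.7 and 6927 against 5520.3 and 5365.3 (-0.35, adjusted p = 0.000239), below the fold threshold. The convertases *PCSK1* and *PCSK2* themselves, *CPE* and *CHGA* were not analysed here.

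**Figure D4:**
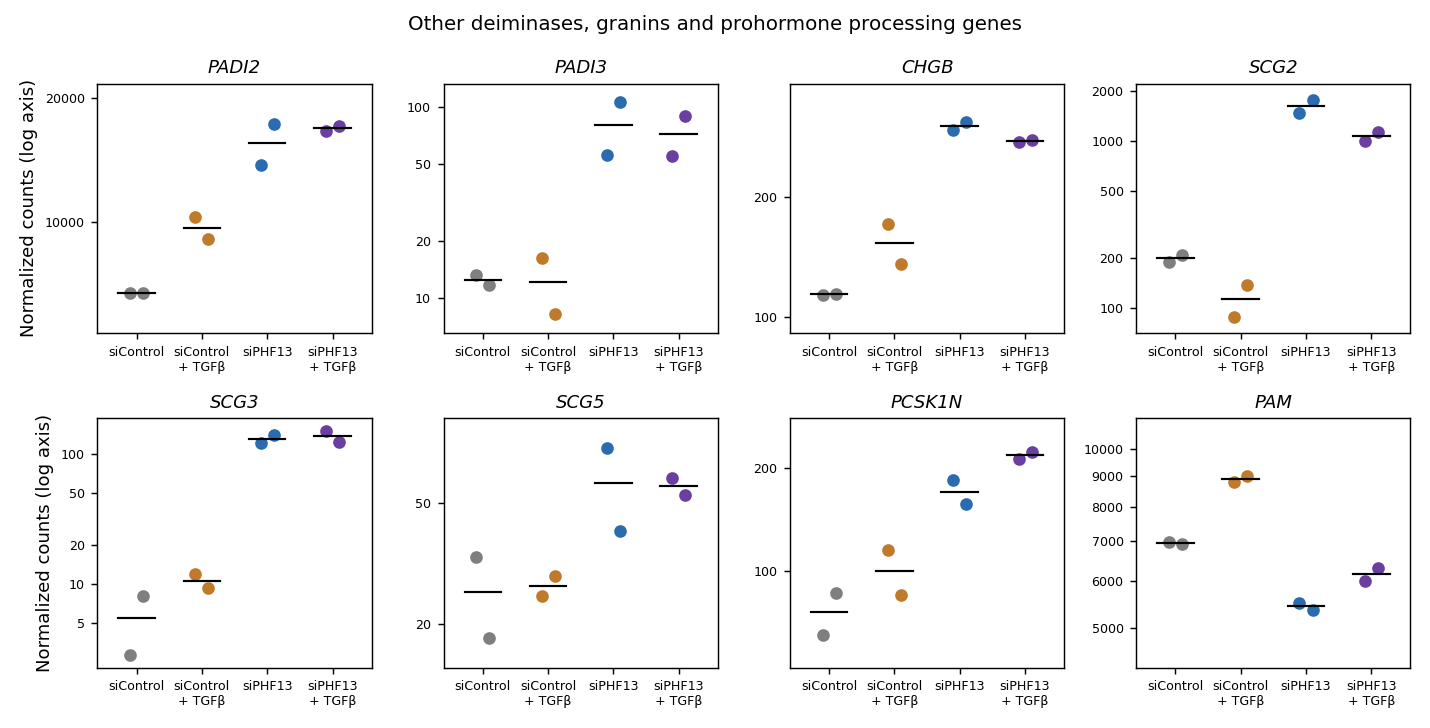
Normalized counts per library (points, log axes) with the mean of 2 libraries (bars) for the deiminases *PADI2* and *PADI3* and 6 genes for granins and prohormone processing. *SCG2* goes from 188.7 and 207.2 in siControl to 1458.2 and 1760.8 in siPHF13, and *PAM* from 6980.7 and 6927 to 5520.3 and 5365.3.

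Genes for the formation and release of dense-core vesicles moved in both directions. Of 15 measured genes 1 was called higher and 6 (40%) lower without TGFβ, with a median of -0.29, where 7.95% of all genes were called higher and 10.4% lower. With TGFβ 2 were called higher and 6 lower, with a median of -0.26, beside 8.81% and 11.7% of all genes. *SNAP25*, a membrane fusion protein of neurons, was the one that rose without TGFβ, from 8.536 and 12.61 to 89.52 and 85.82 normalized counts (log2 fold change 2.96 ± 0.39, adjusted p = 3.64e-05). Without siPHF13 replicate 1, 3 genes of this list were called higher. *HID1*, needed for the formation of these vesicles, fell from 653.5 and 671.3 to 163.1 and 183.5 (-1.93, adjusted p = 3.28e-07). The priming factor *UNC13A* fell from 327.2 and 344.2 to 111.4 and 134.2 (-1.45). *SYTL4*, *CADPS2*, *RAB3B* and *UNC13B* were also called lower in both comparisons. The call of *SYTL4* without TGFβ was lost without siControl replicate 1 (adjusted p = 0.0544) or replicate 2 (adjusted p = 0.0543). That of *CADPS2* with TGFβ was lost without siControl_TGFβ replicate 1 (-1.09) or 2 (-1.10) or siPHF13_TGFβ replicate 1 (-0.69). Of 6 neurotrophin and receptor genes, *NGFR* was called lower without TGFβ (-1.48) and none with TGFβ, and edgeR and DESeq2 on recovered reads called 0 without TGFβ. *C1QBP*, a receptor reported for a VGF peptide, had a log2 fold change of 0.25, below the threshold.

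No other nicotinic subunit was called higher without TGFβ. Of 5 measured, 0 were called higher and 1 lower, with a median log2 fold change of -0.19. Over all genes 7.95% were called higher and 10.4% lower without TGFβ, and 8.81% and 11.7% with TGFβ. *CHRNA7*, which forms a receptor of its own, fell from 82.52 and 91.9 to 29.84 and 15.78 normalized counts (-1.95 ± 0.40, adjusted p = 0.0011). *CHRNA3*, *CHRNA5* and *CHRNB1*, at 0.35, -0.29 and -0.01, were not called. With TGFβ *CHRNA7* was called lower (-1.55) and *CHRNA10* higher (0.64, adjusted p = 0.011). The latter call was lost without siControl_TGFβ replicate 2 (0.52) or siPHF13_TGFβ replicate 1 (0.54). With TGFβ in siControl cells *CHRNA10* had -0.65 (adjusted p = 0.0282), a call that was lost without any single library of the 4 compared (adjusted p = 0.0535 to 0.232). The usual partners *CHRNA4* and *CHRNA2* were not analysed here. Of 4 chaperones and modulators of these receptors, only *PSCA*, a surface protein related to the toxin-like modulator LYNX1, was called, from 51.22 and 60.37 to 107.4 and 143 (1.14, adjusted p = 0.00347) and by 2.14 with TGFβ. In the handling of choline and acetylcholine, the choline transporter *SLC44A1* fell from 1220.7 and 1357.8 to 394.9 and 346.2 (-1.80, adjusted p = 3.09e-08). The esterase *ACHE* had 468.5 and 371.2 against 245.7 and 302.8 and was called lower without TGFβ (-0.61) but fell short of the threshold with TGFβ (-0.52). Its call was lost without siControl replicate 1 (-0.44) or siPHF13 replicate 1 (-0.46). Whether these effects differ with TGFβ was not read from the calls.

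Genes of epidermal differentiation, the usual setting of *PADI1*, gave 0 calls among 9 measured without TGFβ, with a median of 0.07. With TGFβ 2 were called higher, the hair follicle protein *TCHH* (1.09, adjusted p = 0.0023) and *S100A3* (0.64), both known substrates of deiminases, with a median of 0.45 for the 9. The call of *S100A3* was lost without siPHF13_TGFβ replicate 2 (0.57). With TGFβ in siControl cells *TCHH* had a log2 fold change of -1.17 (adjusted p = 0.00509), a call that was lost without siControl replicate 2 (-1.12, adjusted p = 0.0567). The summed level of the keratinocyte markers *TP63* and *KRT10*, the 2 of 12 that were in the table, was 1141 to 1168.6 in siControl and 939.1 to 1248.3 in siPHF13 libraries. Of 5 neuronal and neuroendocrine markers measured, *SYP*, *CHGB* and *MAP2* were called higher in both comparisons, and *ENO2* (0.40) and *NCAM1* (-0.02) were not called without TGFβ. Their summed level was 3949.4 to 4134.7 in siControl and 6928.8 to 7089.9 in siPHF13 libraries, and 3758.4 to 4043.9 against 6241.8 to 7053.2 with TGFβ. The neuronal and neuroendocrine sum moved in the same direction as the 3 genes, and its part in the result was not tested. *CD68* was called higher in both comparisons (log2 fold change 0.77 without and 0.79 with TGFβ). Of 8 duct markers 1 (*EPCAM*) was called higher and 2 (*SOX9* and *CDH1*) lower after depletion without TGFβ. With TGFβ 2 (*KRT19* and *EPCAM*) were called higher and 1 (*SOX9*, -0.62) lower. For the lists of this paragraph the shares over all genes were 7.95% higher and 10.4% lower without TGFβ, and 8.81% and 11.7% with TGFβ. The *SOX9* call with TGFβ was lost without siControl_TGFβ replicate 1 (-0.499) or siPHF13_TGFβ replicate 2 (-0.498).

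The levels of REST and its corepressors were examined with a list that, like the others, was chosen with earlier results of these data known. *REST* had 2117.9 and 1940.8 normalized counts in siControl and 1320.9 and 1393.9 in siPHF13 cells. Its log2 fold change of -0.579 ± 0.077 (SE, adjusted p = 3.83e-05) passed the threshold on p and missed that of 0.58 on the fold. With TGFβ it had 2406.3 and 2430.5 against 1373.2 and 1321.5, and was called lower (-0.84, adjusted p = 1.15e-06). Of 16 measured genes on the REST list, 15 had a log2 fold change below 0 in each comparison. None was called without TGFβ, where 10.4% of all genes were called lower. With TGFβ 2 (*REST* and the histone deacetylase gene *HDAC1*, at -0.71) were called lower. These are 12.5% of the list, near the 11.7% of all genes called lower with TGFβ. The median of the 16 was -0.20 without and -0.26 with TGFβ, against -0.001 and 0.003 over all genes. *BTRC*, counted among the 16, encodes a ubiquitin ligase subunit and not a corepressor. The part of REST in the rise of the 3 genes was not tested.

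Of 14 genes known as REST targets in other cells, most of them neuronal, 5 were called higher and 5 lower without TGFβ (median 0.17). With TGFβ 4 were called higher and 5 lower. *SYP* rose from 347.1 and 411.8 to 1504.9 and 1333.7 normalized counts (1.90 ± 0.11, adjusted p = 2.31e-08), and *SYN1*, *CELSR3*, *SNAP25* and *CRH* were higher as well. *GRIN1*, *L1CAM*, *NPPA*, *GAD1* and *UNC13A* were lower. The call of *SYN1* without TGFβ was lost without siControl replicate 2 (0.97), siPHF13 replicate 1 (1.10) or siPHF13 replicate 2 (1.29). That of *GRIN1* was lost without siControl replicate 2 (-0.89). In the search of 12298 genes, 25 genes besides the 3 had an RE1 match with at most 2 mismatches. Of these 12 (48.0%) were called higher and 2 (8.0%) lower without TGFβ, with a median log2 fold change of 0.51 (0 lower without siControl replicate 2). With TGFβ 10 (40%) were called higher and 3 (12.0%) lower, with a median of 0.39. With up to 3 mismatches there were 56 genes, of which 15 (26.8%) were higher and 3 (5.36%) lower without TGFβ, with a median of 0.18 (0 lower without siControl replicate 2). Over all genes 7.95% were called higher and 10.4% lower without TGFβ, and 8.81% and 11.7% with TGFβ. Several of these genes are also in the lists above, and the search was made after the values were known, so these shares are a description. The lowest mean of a measured gene was 9.82 normalized counts, so genes silent in all conditions are not among those counted. A gene silent in control cells is counted only if it is higher elsewhere, as *CRH* is (0.9485 and 0.901 in siControl, 21.88 and 18.74 in siPHF13 cells). The shares may therefore lean towards rises.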

How the data were processed

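mRNA of Panc-1 cells was sequenced as paired-end reads from 8 libraries, 2 for each of siControl, siPHF13, siControl_TGFβ and siPHF13_TGFβ. According to the submitters' processing notes and the methods of the study, reads were trimmed with Trim Galore 0.4.1, mapped with STAR 2.7.0 (hg19 is named) and counted per gene with HTSeq 0.12.4. The values are a signal: the authors deposited gene counts divided by DESeq2 size factors. The release of the annotation and the strand setting are not given in the sources used here. The columns of untreated control cells carry the prefix NT, which was matched to siControl as the only control without TGFβ. Separate tables with comparisons made by the authors contain log2 fold changes, p-values and adjusted p-values and were not used.

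All values of a library are multiples of the worth of 1 read, from which whole reads were recovered (100% of values whole within 0.001) in 7 libraries. In siPHF13 replicate 1 the step was too near 1 to tell. Log2(normalized count + 1) was fitted with limma 3.58.1 (R 4.3.3, trended prior variance, all 8 libraries, no block), with Benjamini-Hochberg adjustment over 13307 genes. This replaces the count model of the study, because the unit is not counts. Requiring 10 normalized counts in 2 or more libraries removed 0 genes. Same-numbered replicates did not deviate together (correlations of -0.089 to 0.05), so the numbers were not used as pairs. Alternatives were pseudocounts of 0.5 and 5, other minimums, TMM factors, only the compared libraries, a replicate block, edgeR 4.0.16 (quasi-likelihood) and DESeq2 1.42.0 on the recovered reads, no fold threshold, and each library left out. Which calls of single named genes end without a library was computed after seeing the data. Positions and exon lengths are from GENCODE on GRCh37, where 12298 symbols matched 1 gene. Promoters are from RefSeq.

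The 3 genes, the gene lists and the tests were chosen with earlier results of these data known. Beside the 3 genes, those named are the 5 of most similar profile, the 3 nearest measured genes on each side, rank neighbours, and called or role-defining members of the lists. 1 of these nearest genes is not reported here. *SYP* and *CHGB* sites were shown after their values were seen.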

Additional observations from a re-analysis of the deposited data

Results flagged for a closer look

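Of the genes described beside *CHRNB2*, *VGF* and *PADI1*, the duct marker *KRT19* had a response to TGFβ that differed between siControl and siPHF13 cells by the interaction term of the limma model with Benjamini-Hochberg adjustment. Its log2 response was -0.84 in siControl and -0.33 in siPHF13 cells, a difference of 0.50 (adjusted p = 0.0255), which is below the fold threshold of 0.58, so that *KRT19* was not called for it.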

How the results depend on the processing

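The log2 fold changes of *CHRNB2*, *VGF* and *PADI1* after depletion stayed above 0 in all 102 alternative estimates, and none of 150 alternative tests of their response to TGFβ was called. A pseudocount of 5 gave *CHRNB2* 4.12 without and 3.81 with TGFβ, and DESeq2 on the recovered reads gave 4.60 without TGFβ. With 1 library left out, the value with TGFβ lay between 3.8 and 4.27 for *CHRNB2*, 3.16 and 3.49 for *VGF* and 2.81 and 3.32 for *PADI1*. The difference between the TGFβ responses lay between -0.60 and -0.14 for *CHRNB2*, -1.10 and -0.58 for *PADI1* and -0.079 and 0.248 for *VGF*. Responses to TGFβ near 0 changed sign, from -0.12 to 0.11 (*CHRNB2*, siPHF13 cells), -0.32 to 0.01 (*VGF*, siControl cells), -0.17 to 0.028 (*VGF*, siPHF13 cells) and -0.18 to 0.082 (*PADI1*, mean). The cause was not tested.

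Without the fold threshold 6308 genes passed for depletion, 6712 for depletion with TGFβ, 2114 for TGFβ in siControl, 409 in siPHF13 cells and 2348 for the mean response. A minimum mean of 100 left 300 calls for the mean response, with fewer genes tested. The difference between responses gave 27 calls with edgeR, and 12 (without siControl replicate 2) to 111 (without siPHF13_TGFβ replicate 1) with 1 library left out. Of 3816 list and directional counts 3611 stayed within 1.5 times, 108 were lower and 97 higher. List counts under other settings were computed after seeing the data. At that minimum mean, 3 granin genes were called higher in each comparison, 1 deiminase and 9 and 8 of the genes with an RE1 match of at most 2 mismatches.

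With a replicate block, *CHRNB2* had 4.40 and 4.03, and 2438 and 2711 genes were called for depletion without and with TGFβ. The block changed no call of the 3 genes. The replicate numbers did not pair the samples, so this is not a paired design. Control levels of *CHRNB2* rest on few reads, which limits its fold more than that of *VGF*.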
